A study of Mus musculus with 2 samples.

Results

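Squamous epithelial cells collected after birth at the gastroesophageal squamocolumnar junction (GE-SCJ) numbered 133, of which 46 came from pups and 87 from adults. A cell was taken as a member when its deposited class was Squamous Epithelial or Squamous Epithelial-2 and its tag named the junction at either stage, so that no expression value was used to choose it here, although the class itself rests on the authors' clustering of the same counts. These 133 cells were among 730 squamous cells and 7808 cells in all. The question addressed was how they differed from squamous cells of the esophagus of the same stage, of which there were 85 in the pup and 232 in the adult, and how the junction cells of both stages differed from each other.

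All mice were wild type C57BL/6. Esophagus, GE-SCJ and stomach were dissociated from embryos of day 15 and day 19, from pups of day 2 and from adults of 8 weeks, and cells were marked by region and stage with a lipid-bound multiplexing oligo before being sequenced together as 1 droplet library. Per the methods, cells of the adult stomach were not assigned a tag and were left out, and they are not analysed here. The labels give 2 pups and 3 adults, whose cells were mixed under 1 tag per region, but the sources used here differ on how many mice were combined, so that number is uncertain. Each region and stage was therefore 1 sample, the spread between mice is unknown, and no comparison below carries a test. Values are summed unique molecular identifiers (UMIs) per 1000000 UMIs of the group (CPM), with exact 95% Poisson intervals, and log2 ratios were taken after 1 UMI had been added to each group. The intervals cover counting error alone. The pup groups held 972639 UMIs (esophagus) and 669813 UMIs (GE-SCJ), with medians of 9198 and 11907 UMIs per cell. The adult groups held 3209407 and 1552431 UMIs, with medians of 9974 and 14303 UMIs per cell.

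A stratified squamous epithelium renews itself from a basal layer on the basement membrane, in which keratins 5, 14 and 15 are made. Cells that leave this layer exchange these for other keratin pairs, keratin 4 with keratin 13 in the esophagus and keratin 1 with keratin 10 in skin, and fill with cornified envelope proteins and lipids that form the barrier. At the junction this lining meets the glandular epithelium of the stomach, whose single layer is rich in keratins 8, 18 and 19. In the mouse, per the paper, a squamous lining like that of the esophagus also covers the forestomach. The labels do not say whether squamous cells with a junction tag came from esophagus or forestomach.

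Membership rested on the oligo tags, so the 4 that separate the compared groups are shown, with capitals at the positions where the 2 tags of the same stage differ.
CMO307, pup esophagus: AAgCtCGTTGGAAGA
CMO308, pup GE-SCJ: CGgAtTCCACATCAT
CMO310, adult esophagus: gCaGGAGgTAtcAAT
CMO311, adult GE-SCJ: gAaTCGTgATtcTTC
The pup tags differed at 13 of their 15 bases and the adult tags at 10. Over the 11 tags listed the smallest difference between any pair was 8 bases.

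The 4 genes that mark the cells were all detected. *Krt5*, a basal keratin, was at 1681 CPM (1584 to 1782) in the pup GE-SCJ and 1581 CPM (1519 to 1645) in the adult GE-SCJ. *Krt14*, its partner, was at 670.3 CPM (609.8 to 735) and 1477 CPM (1417 to 1539). *Krt13*, the keratin of esophageal suprabasal layers, was at 2659 CPM (2537 to 2785) and 17856 CPM (17647 to 18068), and *Spink5*, an inhibitor of the proteases that loosen the cornified layer, at 148 CPM (120.1 to 179.9) and 1701 CPM (1636 to 1767). In 92 postnatal immune cells, with a median of 5862 UMIs, *Krt13* had a UMI in 41.3% of cells and *Krt5* in 10.9%. These shares were taken as the background in cells that do not make these keratins. Whether they came from free RNA or doublets was not tested. In the junction cells the shares were 60.9% and 84.8% in the pup and 92% and 77% in the adult. At 5000 UMIs per cell the share for *Krt13* was 50% in the pup, 82.1% in the adult and 31.7% in the immune cells.

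Both groups were mixed, in different ways. Of the 46 pup GE-SCJ cells, 44 had the first squamous label and 2 the second, and they lay in the authors' clusters 7 (27 cells), 10 (17 cells) and 15 (2 cells). The pup esophagus had 56 cells of the first label and 29 of the second, with 2 cells in cluster 7, 54 in cluster 10 and 29 in cluster 15. In the adult, 84 of 87 GE-SCJ cells and 231 of 232 esophageal cells were in cluster 7. Most cells thus lay in different clusters in the 2 regions of the pup and in cluster 7 in both regions of the adult, and cluster 7 held most GE-SCJ cells at both stages, with 17 cells of the pup but 2 of the adult in cluster 10. For this reason values among cells of the first label alone, and for some genes within cluster 10, are given beside pup results that they alter.

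Some cells stood apart from their tag. Among the 15 nearest neighbours in expression over all 7808 cells, most were prenatal cells for 10 of the 46 pup GE-SCJ cells and for 3 of the 87 adult ones. Whether these cells carry a wrong tag or resemble prenatal cells was not tested. Single cells of many UMIs carried large shares of some genes. In 1 adult GE-SCJ cell of 50389 UMIs lay 85.8% of the group's UMIs of *Psca*, a surface protein of the gastric mucosa, and 86.2% of those of *Ltf*, lactoferrin. In the adult esophagus 1 cell of 40432 UMIs held 19895 of the 20199 UMIs of *Ghrl*, which encodes the hormone ghrelin, so that *Ghrl* was at 6294 CPM with this cell and 95.9 CPM without it. *Ghrl* was at 67 CPM in the adult GE-SCJ.

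Markers of most other cell types were low. Of 10 immune genes 9 were in the table, and their summed level was 17.9 CPM in the pup GE-SCJ and 9.02 CPM in the adult GE-SCJ, against 8481 CPM in postnatal immune cells, with *Cd68* the most abundant. The 7 endothelial genes summed to 13.4 and 4.51 CPM, led by *Egfl7* with 3 of 7 at 0 in both groups, and the 8 neural and glial genes to 2.99 and 6.44 CPM, led by *Ednrb* with 6 and 4 of 8 at 0. The 7 striated muscle genes summed to 2.99 and 1.93 CPM, with 5 of 7 members at 0 in both groups and *Acta1* the most abundant. The 7 smooth muscle genes, led by *Acta2*, summed to 107 and 106 CPM against 161 and 122 CPM in the esophagus of the same stage. The 10 fibroblast genes, with *Col3a1* the most abundant and none at 0, summed to 403 CPM in the pup GE-SCJ and 436 CPM in the pup esophagus, and to 315 CPM in the adult GE-SCJ and 580 CPM in the adult esophagus. Only 4 of 8 genes for Langerhans cells and lymphocytes were in the table, and these summed to 95.5 and 30.9 CPM, all from *Mfge8*, with the other 3 at 0. The 5 hemoglobin and erythroid genes summed to 218 and 529 CPM, led by *Hbb-bs*. The 4 Y-linked genes were at 0 CPM in the pup GE-SCJ and 2.58 CPM in the adult GE-SCJ. The 6 mesothelial genes summed to 115 and 14.2 CPM, and to 1415 CPM in the pup esophagus, where they were led by *Upk1b*, a gene that urothelium also makes, with 94.2% of its UMIs in cells of the second label. The part of these genes in the differences below was not tested.

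Among keratins the epidermal pair of *Krt1* and *Krt10* set the junction apart from the esophagus at both stages. *Krt1* (chromosome 15, 101845426 to 101850794, minus strand, GRCm38) was at 654 CPM (594 to 718) in the pup GE-SCJ and 2.06 CPM (0.249 to 7.43) in the pup esophagus. In the adult it was at 1966 CPM (1897 to 2037) in the GE-SCJ and 16.5 CPM (12.4 to 21.6) in the esophagus. The log2 ratio of GE-SCJ to esophagus was 7.73 (6.45 to 11.36) in the pup, 6.99 within the first label, and 6.87 (6.50 to 7.32) in the adult. *Krt10* (chromosome 11, 99385254 to 99389364, minus strand), which encodes its partner, was at 785 CPM (719.6 to 855) against 12.3 CPM (6.38 to 21.6) in the pup, and at 2259 CPM (2185 to 2335) against 38.3 CPM (31.9 to 45.7) in the adult. Its log2 ratio was 5.88 (5.18 to 6.95) in the pup, 5.38 within the first label and 0.39 within cluster 10, and 5.87 (5.62 to 6.15) in the adult. Of the pup GE-SCJ UMIs 43.2% of *Krt1* and 48.3% of *Krt10* lay in 1 cell, and without the cell with the most UMIs of the gene in each group the ratios were 7.53 and 5.14 in the pup and 6.79 and 5.48 in the adult. Before birth both genes were low in squamous cells of the GE-SCJ, with *Krt1* at 5.53 CPM on embryonic day 15 and 5.57 CPM on day 19, and *Krt10* at 40.9 and 24.1 CPM. The 7 squamous cells with the pup stomach tag had 603 CPM of *Krt1* and 374 CPM of *Krt10*, so that the contrast described is with the esophagus alone.

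Among basal keratins *Krt14* was at least 2-fold higher in the junction cells at both stages and *Krt5* in the pup, and *Krt15* was lower by under 2-fold. *Krt5* was at 435 CPM (394 to 478) in the pup esophagus and 1312 CPM (1272 to 1352) in the adult esophagus, which gave log2 ratios of 1.95 and 0.27. *Krt14* was at 239.6 CPM (209.8 to 272) and 642 CPM (614 to 669.9), with log2 ratios of 1.48 (1.25 to 1.72) and 1.20 (1.12 to 1.29). Among cells of the first label the pup ratio of *Krt14* was 0.75 and that of *Krt5* 1.23, and within cluster 10 they were 0.15 and 1.46. *Krt15*, which marks less differentiated basal cells, went the other way, at 1309 CPM (1224 to 1399) against 2293 CPM (2199 to 2389.9) in the pup, and at 985 CPM (936 to 1036) against 1578 CPM (1534 to 1622) in the adult. Its log2 ratios were -0.81 and -0.68, and -1.11 in the pup within the first label.

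The esophageal pair was lower in the adult junction cells. *Krt13* was at 17856 CPM in the adult GE-SCJ and 27514 CPM (27333 to 27696) in the adult esophagus, and *Krt4* at 9967 CPM (9811 to 10125) and 18749.6 CPM (18600.1 to 18900.0). Their log2 ratios were -0.62 and -0.91. In the pup *Krt13* was at 2659 CPM against 3711 CPM (3590.4 to 3834), a log2 ratio of -0.48, but 77.0% of its esophageal UMIs were in cells of the second label and the ratio within the first label was 0.82. Without the cell with the most UMIs in each group the pup ratio over both labels was -1.01. The first-label ratio without that cell is not given, and 1 pup GE-SCJ cell held 1164 UMIs of *Krt13* and *Krt4* together. *Krt4* was at 1147 CPM (1067 to 1231) against 1052 CPM (988 to 1118) in the pup, but 62.1% of its GE-SCJ UMIs lay in 1 cell, and without the cell with the most UMIs in each group its log2 ratio was -0.83 in place of 0.12.

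Keratins of activated and hyperproliferative epidermis were higher in the adult GE-SCJ. *Krt6b* was at 489.6 CPM (455 to 526) against 6.23 CPM (3.81 to 9.62), *Krt16* at 181 CPM (160.5 to 203) against 13.7 CPM (9.96 to 18.4), and *Krt17* at 368 CPM (339 to 399.9) against 16.5 CPM (12.4 to 21.6). The log2 ratios were 6.23, 3.70 and 4.46. In the pup, *Krt17* was at 264 CPM (227 to 306) against 110.0 CPM (90.2 to 133), with a ratio of 1.26 that was 0.54 within the first label and 0.32 without the cell with the most UMIs in each group. *Krt16* had 25 UMIs in the pup GE-SCJ and 0 in the pup esophagus, at least 12.1-fold higher against a floor of 3 UMIs for the group, and *Krt6b* had 1 and 6 UMIs. *Krt6a* and *Krt6b*, and likewise *Krt14*, *Krt16* and *Krt17*, are close in sequence, and reads shared between them make these values uncertain. *Krt78*, a keratin of esophageal suprabasal cells, was at 38.6 CPM (29.5 to 49.7) in the adult GE-SCJ and 123 CPM (111 to 136) in the adult esophagus, a log2 ratio of -1.65.

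**Figure D1:**
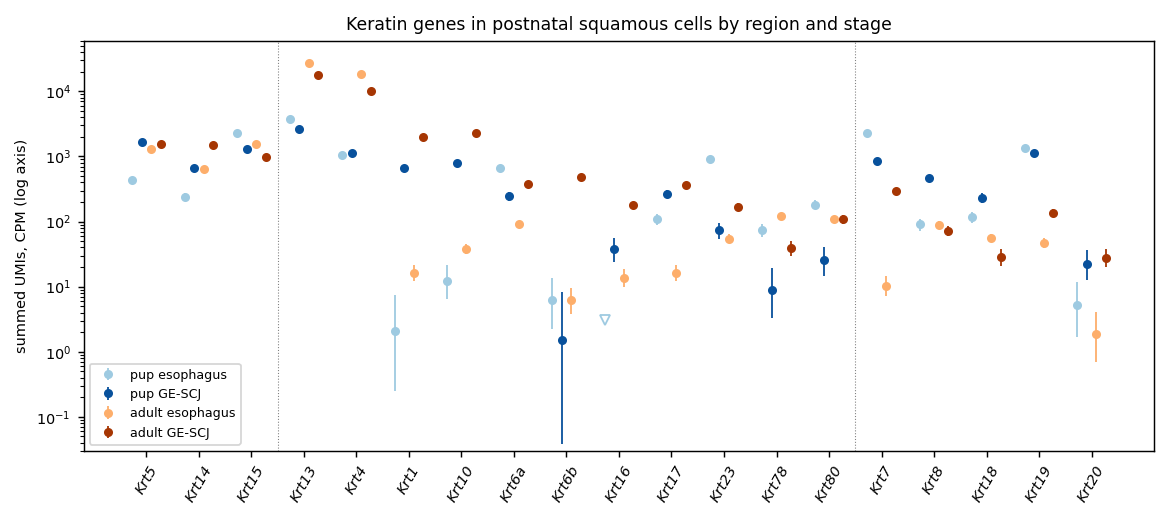
Summed level of 19 keratin genes (CPM, log axis) in squamous cells of the pup and adult esophagus and GE-SCJ, 1 pooled sample each, with exact 95% Poisson intervals as bars and an open triangle at the floor of 3 UMIs where a group had none. *Krt1* and *Krt10* stood at 654 and 785 CPM in the pup GE-SCJ and 1966 and 2259 CPM in the adult GE-SCJ, above both esophageal groups.

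Most UMIs of the pair lay in a minority of cells. A UMI of *Krt1* was found in 21.7% of pup GE-SCJ cells and 52.9% of adult GE-SCJ cells, against 2.35% and 8.19% in the esophagus and 1.09% of postnatal immune cells (median 5862 UMIs). At 5000 UMIs per cell these shares were 19%, 44.8%, 1.33%, 4.68% and 1.67%. A limit of 10 *Krt1* and *Krt10* UMIs per 10000, which was set after the values were seen and marks a range rather than a type, was reached by 7 of 46 pup GE-SCJ cells (15.2%, exact binomial interval 6.34 to 28.9) and by 28 of 87 adult GE-SCJ cells (32.2%, 22.6 to 43.1). No cell reached it among 85 of the pup esophagus or 232 of the adult esophagus, for which the upper limits of the exact binomial intervals are 4.25% and 1.58%. Within 2-fold of the limit on either side lay 3 pup GE-SCJ cells, 12 adult GE-SCJ cells and 3 cells of the adult esophagus. The 7 pup cells held 97.9% of the group's UMIs of the pair and the 28 adult cells 97.3%. The most loaded adult cell, of 74388 UMIs, held 1095 of 3052 *Krt1* UMIs and 1274 of 3507 *Krt10* UMIs.

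In the pup all 7 of these cells had fewer UMIs of *Krt13* and *Krt4* than of *Krt1* and *Krt10*. In the adult 17 of the 28 had fewer and 11 had more, so that both pairs were counted in the same cells. Among the 28 adult cells 14 also had at least 10 UMIs of *Krt5* and *Krt14* per 10000, and among the 7 pup cells 2 did. Doublets were not removed beyond the authors' own filters, and their part was not tested.

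**Figure D2:**
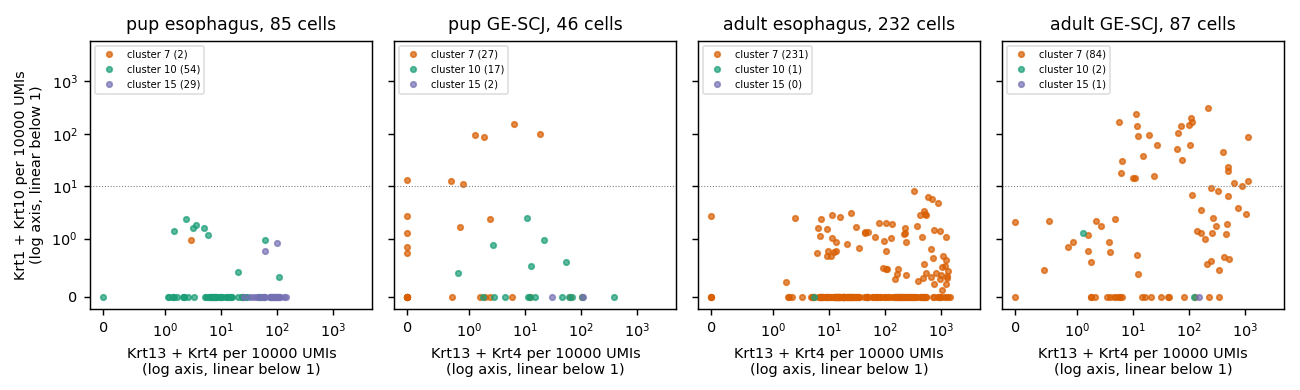
Each point is 1 squamous cell, with UMIs of *Krt13* and *Krt4* per 10000 on the x axis and of *Krt1* and *Krt10* per 10000 on the y axis (log axes, linear below 1), coloured by the deposited cluster, and the dotted line is at 10 per 10000. Above the line lie 7 pup GE-SCJ cells and 28 adult GE-SCJ cells, and no cell of either esophageal group.

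Over 1971 genes with at least 100 UMIs in the pup comparison, 11% were at least 2-fold higher in the GE-SCJ than in the esophagus and 14.2% at least 2-fold lower, which was 216 and 280 genes with a median log2 ratio of 0.24 over all. With mitochondrial, ribosomal protein and hemoglobin genes left out the median was 0.51 and the counts were 425 and 222, so that higher genes were 65.7% of the calls in place of 43.5%. Among cells of the first label alone (44 against 56) they were 88 and 105 of 1470 genes, with a median of 0.03. Both the number and the direction of the pup calls thus changed with these choices.

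The pup ratios of several single genes came next after those of the epidermal keratins, while the cornified envelope list, given below, had 3 of 9 members higher and 5 lower. *Ly6d*, a membrane protein of differentiating squamous cells, was at 2154 CPM (2045 to 2268) in the GE-SCJ and 38 CPM (26.8 to 52.4) in the esophagus. *Krtdap*, a secreted protein of differentiating keratinocytes, was at 2033 CPM (1927 to 2144) and 39.1 CPM (27.6 to 53.6). *Mt4*, the metallothionein of squamous epithelia, was at 721 CPM (658 to 788) and 16.5 CPM (9.40 to 26.7). Their log2 ratios of 5.79, 5.67 and 5.37 were 5.39, 5.31 and 5.72 within the first label. For *Mt4* 81.0% of the GE-SCJ UMIs lay in 1 cell, and the ratio without the cell with the most UMIs in each group was 3.21. *Lgals7*, galectin 7 of stratified epithelia, was at 2875 CPM (2748 to 3007) against 209 CPM (181 to 239), and *Lypd3*, a Ly6 family protein of suprabasal cells, at 155 CPM (127 to 188) against 9.25 CPM (4.23 to 17.6). The envelope precursor *Sprr2a3* was at 300.1 CPM (260.0 to 345) against 8.23 CPM (3.55 to 16.2), and counts of this gene can be split with its near-identical neighbours. The pup ratios of *Lgals7*, *Lypd3* and *Sprr2a3* within the first label were 3.16, 4.19 and 4.87. Within cluster 10 the ratio was 0.0021 for *Mt4* and -0.35 for *Lgals7*, and 5.64 for *Ly6d* and 3.71 for *Krtdap*.

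Single genes of lipid transport and redox metabolism were higher as well, while the redox list as a whole, given below, had members in both directions. *Fabp5*, which carries fatty acids in epidermis, was at 2004 CPM (1898 to 2114) in the pup GE-SCJ and 197 CPM (170.5 to 227) in the pup esophagus, and *Txn1*, thioredoxin, at 2887 CPM (2760.1 to 3019) and 288 CPM (255 to 324). *Gpx2*, a glutathione peroxidase, was at 229.9 CPM (195 to 269) and 22.6 CPM (14.2 to 34.2). The log2 ratios were 3.34, 3.32 and 3.29, and 2.76, 2.70 and 2.67 within the first label. These genes were chosen for their pup ratio, and the first label holds 44 of the same 46 GE-SCJ cells, so its values are a description. Within cluster 10 *Fabp5*, *Txn1* and *Gpx2* were at 1.92, 2.03 and 3.14.

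The pup GE-SCJ cells fell into parts that differed in these genes. In the 27 cells of cluster 7, *Krt1* was at 1423 CPM, *Krt10* at 1691 CPM, *Mt4* at 1564 CPM and *Lgals7* at 6013 CPM. In the 17 cells of cluster 10 these were at 5.73, 22.9, 11.5 and 238 CPM. Cluster 10 cells had more *Krt13* (4606 against 238 CPM), *Krt15* (2166 against 385 CPM) and *Krt19* (1988 against 62.0 CPM), the last a keratin of simple epithelia. Of the 1608 *Krt13* and 693 *Krt4* UMIs of cluster 10, 1 cell held 1164 UMIs of both genes together. Since the clusters were built from these counts, these values describe them and test nothing. In cluster 10, 7 of the 17 pup GE-SCJ cells and 6 of the 54 pup esophageal cells had mostly prenatal neighbours. When only cluster 10 cells of both regions were compared, 17 against 54, the log2 ratio of *Ly6d* was 5.64, of *Sprr2a3* 5.72, of *Krtdap* 3.71 and of *Txn1* 2.03, whereas that of *Krt10* was 0.39, of *Mt4* 0.00 and of *Lgals7* -0.35.

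**Figure D3:**
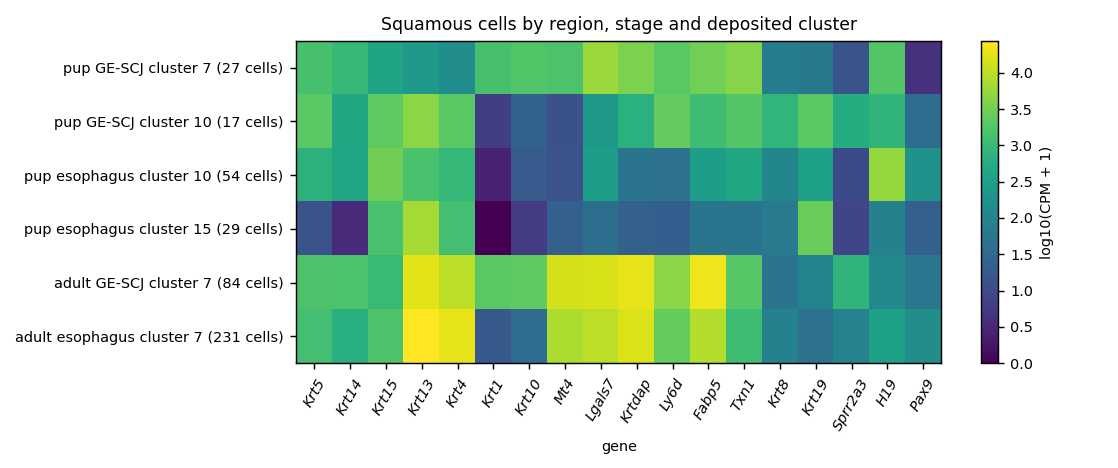
Levels of 18 genes, as log10 of CPM plus 1 (colour scale), in squamous cells by region, stage and deposited cluster, with the number of cells in each row. In the pup GE-SCJ, *Krt1*, *Krt10* and *Mt4* were at 1423, 1691 and 1564 CPM in cluster 7 and at 5.73, 22.9 and 11.5 CPM in cluster 10.

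Of the 280 genes lower in the pup GE-SCJ 227 had over 50% of their pup esophageal UMIs in cells of the second label. Over all genes, the 29 pup esophageal cells of cluster 15 held 401731 of the 972639 UMIs of this group. The share of all tested genes with over 50% in the second label is not given. Within the first label 87 of the 280 had a ratio at least 2-fold lower, 87 a ratio lower by under 2-fold and 106 a higher one. No count minimum was applied to this split, so genes with few or no UMIs there were counted too. *Isg15*, with 0 UMIs in both groups of the first label, had a ratio of -0.20 from the added UMI alone. *Isg15*, an interferon-induced gene, had 325 UMIs (334 CPM, 299 to 373) in the pup esophagus, all in cells of the second label, and none in the pup GE-SCJ, at least 74.6-fold lower against the floor of 3 UMIs. *Clca3b*, a chloride channel regulator, was at 175 CPM (144 to 209) against 3889 CPM (3766 to 4015), with 99.6% of the esophageal UMIs in the second label. *Duoxa2*, a maturation factor of the oxidase that makes hydrogen peroxide at mucosal surfaces, was at 29.9 CPM (18.2 to 46.1) against 921 CPM (862 to 984), with 99.7% of the esophageal UMIs there. The other 7 of the 10 genes with the lowest pup ratio were *Defb14*, *Muc20*, *Gm36287*, *2300002M23Rik*, *Cidea*, *Jdp2* and *Clca3a2*. Between 98.6% and 100% of their esophageal UMIs lay in the second label. Sets of 10 with the highest or lowest ratio were taken among genes with a UMI in at least 25% of cells of the higher group.

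Other genes were lower among cells of the first label. *H19*, an imprinted RNA of growing tissue (chromosome 7, 142575529 to 142578143), was at 1229 CPM (1146 to 1316) in the pup GE-SCJ and 3219 CPM (3107 to 3334) in the pup esophagus, with a log2 ratio of -1.39 that was -2.11 within the first label and -2.79 within cluster 10. *Igf2*, its imprinted neighbour and a fetal growth factor, was at 158 CPM (129.6 to 191) and 593 CPM (546 to 644), with ratios of -1.90, -2.54 and -2.91 in the same order. Both were lower in the pup junction cells under each of these 3 selections of cells.

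In the adult a smaller share of genes was apart. Over 5259 genes 1.37% were at least 2-fold higher in the GE-SCJ and 3.16% at least 2-fold lower, which was 72 and 166 genes with a median log2 ratio of -0.05. Without the cell with the most UMIs of each gene these were 44 and 178 genes.

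Of the 10 genes with the highest adult ratio *Chil4* had the highest level in the adult GE-SCJ (chromosome 3, 106201490 to 106219507). It encodes a chitinase-like protein, and was at 4102 CPM (4002 to 4204) in the adult GE-SCJ and 60.8 CPM (52.5 to 69.9) in the adult esophagus, a log2 ratio of 6.07 (5.87 to 6.29). Of its 6368 UMIs in the GE-SCJ 2646 were in 1 cell and 1262 in the next, and 31 of 87 cells had a UMI (35.6%), against 26 of 232 esophageal cells (11.2%) and 2.17% of postnatal immune cells. At 5000 UMIs per cell these shares were 38.8%, 9.94% and 0%. Reads of *Chil4* can be shared with *Chil3*, a near-identical gene.

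Some enzymes were higher in the adult GE-SCJ too, although the detoxification list given below was not apart as a whole. *Aldh1a1*, which makes retinoic acid and clears aldehydes, was at 167 CPM (147 to 188) against 23.7 CPM (18.7 to 29.6) in the adult and at 64.2 CPM (46.5 to 86.5) against 8.23 CPM (3.55 to 16.2) in the pup. *Ces1f*, a carboxylesterase, was at 83.1 CPM (69.4 to 98.7) against 4.05 CPM (2.16 to 6.93) in the adult and had no UMI in either pup group. *Mgst1*, a microsomal glutathione transferase, was at 376 CPM (346 to 407) against 115 CPM (104 to 128) in the adult and at 279 CPM (241 to 322) against 64.8 CPM (49.8 to 82.9) in the pup. Within the first label the pup ratios of *Aldh1a1* and *Mgst1* were 2.45 and 1.45. *Fabp5*, already high in the adult esophagus at 8594 CPM (8493 to 8696), was at 21232 CPM (21003 to 21462) in the adult GE-SCJ, a log2 ratio of 1.30. *Krt7* and *Psca* were also among the 10 genes with the highest adult ratio, but 61.9% and 85.8% of their GE-SCJ UMIs lay in 1 cell.

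Some envelope and antimicrobial genes were lower in the adult junction cells, while their lists, given below, had members in both directions. *Lce3a*, a late cornified envelope protein, had 1 UMI in the adult GE-SCJ (0.644 CPM, 0.0163 to 3.59) and 1113 UMIs in the adult esophagus (347 CPM, 327 to 368), a log2 ratio of -8.07 (-14.38 to -6.59). *Crct1*, a cysteine-rich protein of the envelope gene cluster, was at 621 CPM (582 to 661) against 2905 CPM (2847 to 2965). *Lor*, the main protein of the epidermal envelope, was at 2036 CPM (1965 to 2108) against 4315 CPM (4244 to 4388). *Slpi*, a secreted protease inhibitor of mucosal surfaces, was at 2434 CPM (2357 to 2512) against 9719 CPM (9611 to 9827), a log2 ratio of -2.0, and *Defb4*, a beta-defensin, at 562 CPM (526 to 601) against 2499 CPM (2445 to 2554), a ratio of -2.15. Without the cell with the most UMIs in each group these were -7.74 for *Lce3a*, -2.48 for *Slpi* and -2.81 for *Defb4*. *Klk10*, a secreted protease of the kallikrein family, was at 131 CPM (113 to 150.0) against 549.6 CPM (524 to 576).

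Others among the 10 genes with the lowest adult ratio were mostly of low level. *Sim2*, a transcription factor, was at 5.15 CPM (2.22 to 10.2) against 37.4 CPM (31 to 44.7) in the adult, and had no UMI in the pup GE-SCJ against 46 in the pup esophagus, at least 10.6-fold lower. *Crip1*, a small LIM domain protein, was at 193 CPM (171 to 216) against 919 CPM (886 to 952), and *Krt32*, a hair and tongue keratin, at 33.5 CPM (25 to 43.9) against 149 CPM (136 to 163). *Cpn1*, *Rassf10*, *Bmp3* and *Ccdc3* were between 4.51 and 9.02 CPM in the adult GE-SCJ and between 28.7 and 44.9 CPM in the adult esophagus. *Ghrl* stood first in this list, which holds only genes with a UMI in at least 25% of cells of the higher group. It did so through the 1 esophageal cell described above.

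Of 1860 genes with enough UMIs at both stages, 9 were at least 2-fold higher in the GE-SCJ in the pup and in the adult, 23 were lower in both, and 4 were higher in the pup and lower in the adult, and 15 the reverse. Counts of this kind follow from the shares above and are a description. The 9 were *Krt1*, *Krt10*, *Sprr2a3*, *Krt17*, *Car2*, *Mgst1*, *Fabp5*, *Dapl1* and *Krt14*, and *Dbi*, an acyl-CoA binding protein, followed with log2 ratios of 2.34 and 1.00, the latter just under 2-fold. *Sprr2a3* was at 801 CPM (757 to 847) against 93.2 CPM (82.9 to 104) in the adult, a log2 ratio of 3.10 after 5.03 in the pup. *Car2*, a carbonic anhydrase, was at 119 CPM (94.7 to 149) against 47.3 CPM (34.6 to 63.1) in the pup, and at 231 CPM (207 to 256) against 52.7 CPM (45 to 61.2) in the adult. *Dapl1*, an epithelial death-associated protein, was at 526 CPM (472 to 583) against 200.5 CPM (173 to 231) and at 2137 CPM (2065 to 2211) against 865 CPM (833 to 898). Within the first label the pup ratios of *Krt14* (0.75), *Krt17* (0.54), *Dapl1* (0.65) and *Car2* (0.99) were under 2-fold, and the other 5 were above it. That of *Dapl1* was -0.97 within cluster 10.

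The gene of clearest known role among those lower at both stages was *Pax9* (chromosome 12, 56691767 to 56712822, plus strand), a transcription factor of the esophageal epithelium. It was at 22.4 CPM (12.5 to 36.9) in the pup GE-SCJ and 119 CPM (98.5 to 143) in the pup esophagus, and at 54.8 CPM (43.7 to 67.7) and 158 CPM (144 to 172) in the adult. This gave log2 ratios of -2.33 (-3.30 to -1.63) and -1.51 (-1.87 to -1.19), and the pup ratio was -3.05 within the first label and -2.27 within cluster 10. A UMI of *Pax9* was found in 21.7% of pup GE-SCJ cells and 57.6% of pup esophageal cells, in 37.9% and 63.8% of the adult cells, and in 1.09% of postnatal immune cells. At 5000 UMIs per cell the shares were 7.14%, 45.3%, 16.4%, 42.1% and 1.67%.

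Of the 23 genes lower at both stages 17 kept a ratio past 2-fold within the pup first label, 2 were lower by less and 4 were higher there. No count minimum was applied to this split. *Bglap3*, among the 17, had 2 UMIs there in the esophagus and 0 in the GE-SCJ, and *Trex2*, among the 2, had a ratio of -0.20. *Peg3*, an imprinted gene, was at 20.9 CPM (11.4 to 35.1) against 174 CPM (149 to 202) in the pup and at 11 CPM (6.38 to 17.5) against 58 CPM (49.9 to 66.9) in the adult. *Icam1*, an adhesion molecule for leukocytes, was at 37.3 CPM (24.2 to 55.1) against 139.8 CPM (117 to 165) and at 1.93 CPM (0.399 to 5.65) against 39.6 CPM (33 to 47.1). *Nfkbiz*, a regulator of NF-kappaB target genes, was at 50.8 CPM (35.2 to 70.9) against 229 CPM (200.2 to 261) and at 32.2 CPM (23.9 to 42.5) against 88.8 CPM (78.8 to 99.7). Without the cell with the most UMIs in each group the adult ratio of *Peg3* was -1.69 in place of -2.33. *Gm20186*, a gene of unknown function, had log2 ratios of -2.07 and -1.91. For these 4 genes the pup ratios within the first label were -3.38, -2.50, -2.19 and -2.85. *Sbno2* was at -1.12 there and *Sox4* at -1.93. *Uaca* and *Slc12a2*, by contrast, were at 0.19 and -0.03 in the first label, and *Bglap3* and *Il1r2* had over 99% of their pup esophageal UMIs in the second.

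**Figure D4:**
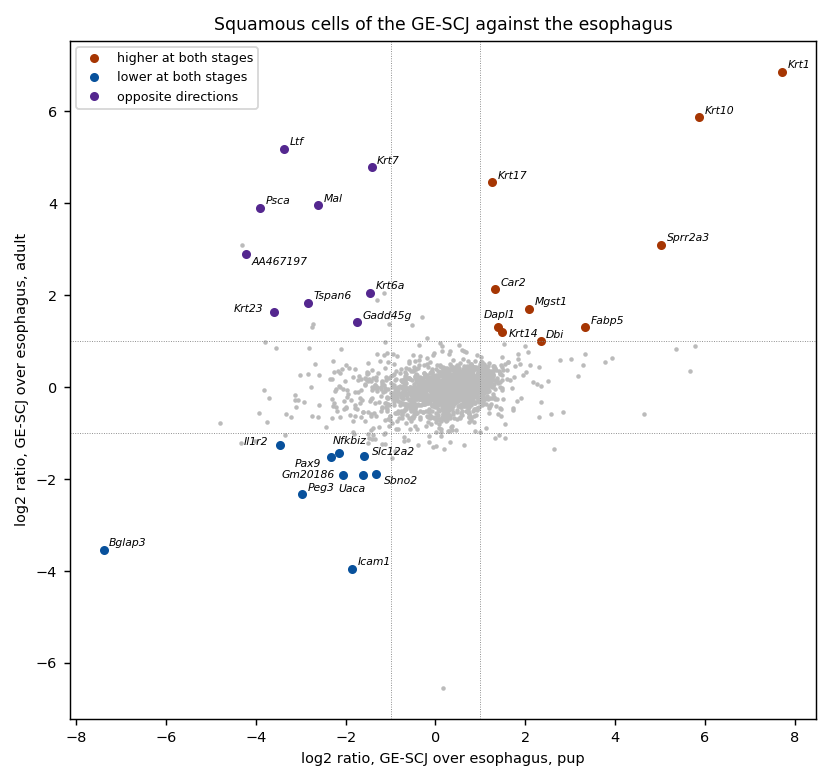
Log2 ratio of GE-SCJ to esophageal squamous cells in the pup (x axis) and in the adult (y axis), 1 point per gene with at least 100 UMIs at each stage, dotted lines at 2-fold and the genes named by rule in colour. *Krt1* and *Krt10* lie at 7.73 and 6.87 and at 5.88 and 5.87, *Pax9* at -2.33 and -1.51, and *Dbi* just under the adult line at 1.00.

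Cells with at least as many UMIs of *Krt5*, *Krt14* and *Krt15* as of *Krt13*, *Krt4*, *Krt6a*, *Krt1* and *Krt10* were taken as a basal keratin range. They were 31 of 46 pup GE-SCJ cells (67.4%, exact binomial interval 52.0 to 80.5) and 48 of 85 pup esophageal cells (56.5%, 45.3 to 67.2), and 39 of 87 adult GE-SCJ cells (44.8%, 34.1 to 55.9) and 121 of 232 adult esophageal cells (52.2%, 45.5 to 58.7). These intervals cover the counting of cells alone, and 10, 12, 7 and 22 cells lay near the limit. Among adult cells of this range alone, *Krt1* had a log2 ratio of 4.68, *Krt10* of 2.77, *Krt14* of 1.36, *Krt16* of 6.05, *Krt17* of 4.39, *Chil4* of 7.51, *Fabp5* of 3.19 and *Pax9* of -1.90. Those of *Slpi* (-0.50), *Crct1* (-0.69) and *Klk10* (-0.64) were under 2-fold, and that of *Lor* was 0.22. Among pup cells of the range *Krt1* was at 2.64, *Krt10* at 2.62, *Ly6d* at 4.76, *Krtdap* at 4.18, *Lgals7* at 2.53, *Mt4* at 0.23 and *Pax9* at -3.07. The keratins that set the range are not independent of it.

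Gene lists are described by how many tested members were at least 2-fold apart and by their median log2 ratio, beside the shares and medians over all genes given above. The 11 suprabasal keratins had 7 members higher and 1 lower in the adult (median 2.06) and, of 8 tested, 3 higher and 3 lower in the pup (median -0.18), with 2 of 6 higher and none lower within the first label (median 0.68). Of 3 basal keratins 2 were higher in the pup (median 1.48), with 1 higher and 1 lower within the first label, and 1 in the adult (0.27). The members of the adhesion machinery of basal cells, integrins, laminins and hemidesmosome proteins, had 1 of 9 higher in the pup (median 0.32, or -0.41 within the first label) and 1 of 8 lower in the adult (median -0.65). In the pup the higher member was *Cd44*, at 154 CPM (126 to 186) against 21.6 CPM (13.4 to 33), and in the adult the lower one was *Itgb4*, at 37.4 CPM (28.4 to 48.3) against 86.6 CPM (76.7 to 97.4). Desmosome genes had 2 of 5 members higher in the pup (median 0.96), *Perp* and *Jup*, none within the first label, and none of 11 apart in the adult (median 0.11). *Perp* was at 1342 CPM (1256 to 1433) against 549 CPM (503 to 598) in the pup, a ratio of 1.29 that was 0.64 within the first label.

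The lists of barrier genes differed in how many members were higher and lower. Cornified envelope genes had 1 of 16 higher and 7 lower in the adult (median -0.64), and 3 of 9 higher and 5 lower in the pup (median -1.32). Among pup cells of the first label only 5 members had enough UMIs, with 4 higher and none lower (median 4.05). Members such as *Sprr2a3* (201 UMIs in the GE-SCJ, 5 in the esophagus) and *Cnfn* (167 and 19) passed the minimum through the GE-SCJ. The count and median of these 5 thus follow in part from the minimum and say nothing of the other members. *Cnfn*, cornifelin, was at 596 CPM (539 to 657) against 5602 CPM (5455 to 5753) in the pup, but at 255 against 33.3 CPM within the first label, since 99.6% of its esophageal UMIs were in the second. Lipid barrier genes were higher for 3 of 3 in the pup (median 2.00), *Fabp5*, *Scd2* and *Degs1*, of which *Degs1* was at 0.83 within the first label, and for 1 of 18 in the adult, with 2 lower (median -0.11). *Scd2*, a stearoyl-CoA desaturase, was at 258 CPM (221 to 299.8) against 63.7 CPM (48.9 to 81.7) in the pup. Genes of the Ly6 and SLURP family had 2 of 4 higher and 2 lower in the pup (median 1.29). This median was -1.61 without the cell with the most UMIs in each group and -2.20 without cells near prenatal ones. Within the first label 3 of 3 were higher, and in the adult 2 of 9 (median 0.63). In the first label *Ly6d* (1443 against 29 UMIs) and *Lypd3* (104 against 4) also passed the minimum through the GE-SCJ. Protease inhibitors had 3 of 7 higher and 1 lower in the pup (median 0.61), 2 of 5 higher within the first label, and 1 of 17 higher and 3 lower in the adult (median 0.11). *Spink5*, in this list, was at 17.5 CPM (10.2 to 28) in the pup esophagus and 1112 CPM (1076 to 1149) in the adult esophagus, which gave log2 ratios of 3.01 and 0.61. The pup ratio of *Spink5* was 2.25 without the cell with the most UMIs in each group.

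Of 29 innate defence genes few had enough UMIs. The list had 4 of 5 members lower in the pup (median -2.14), 2 of 3 within the first label, and 6 of 11 lower in the adult (median -1.21), with *Chil4* the 1 higher member. The summed level of the list was 494 CPM in the GE-SCJ and 2062 CPM in the esophagus of the pup, and 5023 against 3237 CPM in the adult, where *Chil4* made up 4102 CPM of the GE-SCJ sum. Genes of antigen presentation and interferon response had 2 of 4 lower in the pup (median -1.22) and none of 6 apart in the adult (median 0.17). In the pup esophagus 86.6% of the UMIs of *H2-D1*, 89.5% of those of *H2-K1* and all of those of *Isg15* lay in the second label, and within the first label the ratios of *H2-D1* and *H2-K1* were both 1.39. The S100 proteins had 3 of 6 lower in the pup (median -0.73), but 1 of 5 higher and none lower within the first label (median 0.72), and 3 of 10 lower in the adult (median -0.22). *S100a9*, a calcium-binding protein of activated epithelium, was at 31.6 CPM (23.4 to 41.7) against 129 CPM (117 to 142) in the adult, a log2 ratio of -2.0 that was 0.53 in the basal keratin range. Tight junction genes had 4 of 7 lower in the pup (median -2.09) and none of 5 apart in the adult (median -0.10). Among pup cells of the first label 1 of 4 tight junction genes was higher and 1 lower.

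Detoxification and redox genes had 7 of 17 members higher and 3 lower in the pup (median 0.83), 7 of 16 and 2 within the first label, and 4 of 30 higher and 1 lower in the adult (median 0.04). The lower adult member was *Aldh3a1*, an aldehyde dehydrogenase of cornea and esophagus, at 444 CPM (412 to 479) against 1580.3 CPM (1537 to 1624), with a ratio of -1.83 that was 0.17 in the basal keratin range. Proliferation genes had 5 of 10 higher in the pup (median 0.98), none within the first label, and none of 15 apart in the adult (median -0.37). *Mki67*, which marks cycling cells, was at 179 CPM (149 to 214) against 60.7 CPM (46.2 to 78.2) in the pup, with a ratio of 1.55 that was 0.81 within the first label and 2.50 without the cell with the most UMIs in each group, and at 79.9 CPM (66.4 to 95.2) against 139 CPM (126 to 152) in the adult. Immediate early genes had 5 of 14 lower in the pup (median -0.71), 8 within the first label, and 1 of 16 higher and 3 lower in the adult (median -0.12). Heat shock genes had 5 of 11 lower in the pup (median -0.68), 6 within the first label, and 1 of 12 higher in the adult (median 0.18), *Hspb1* at 4908 CPM (4798 to 5019) against 2337 CPM (2284 to 2390.4).

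**Figure D5:**
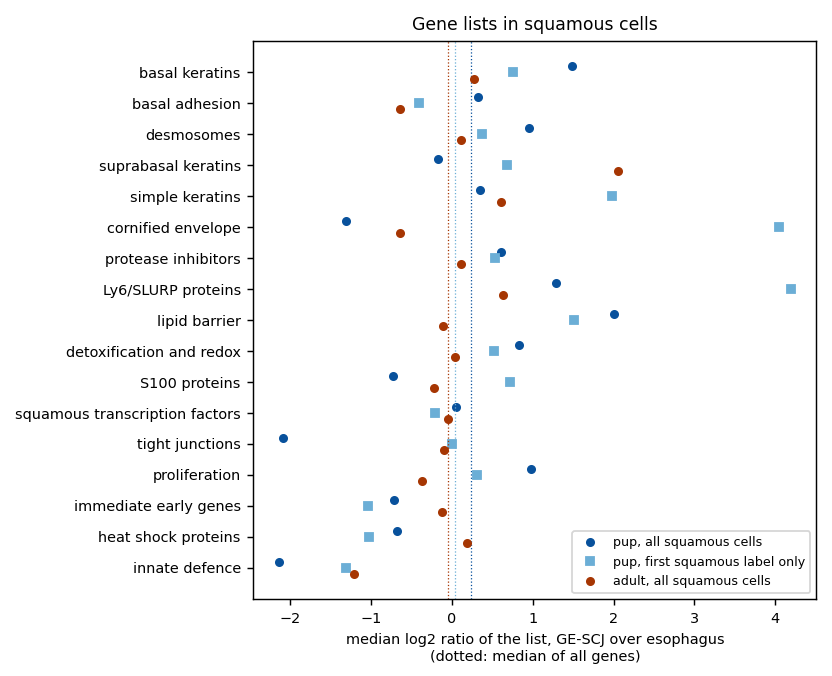
Median log2 ratio of GE-SCJ to esophageal squamous cells (x axis) for 17 gene lists (y axis) in the pup with both labels, in the pup with the first label alone and in the adult, with the median over all genes of the same comparison as dotted lines. Suprabasal keratins lie at 2.06 in the adult, and cornified envelope genes at -1.32 in the pup with both labels and at 4.05 with the first alone. The last value rests on 5 genes, some of which passed the count minimum through the GE-SCJ.

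Transcription factors of squamous epithelium were mostly within 2-fold. Of 25 genes, 11 were tested in the pup, with 2 lower and a median of 0.05 (1 higher and 2 lower of 10 within the first label), and 20 in the adult, with 1 lower and a median of -0.05. The pup pair was *Pax9* and *Elf3*, the latter at 134 CPM (108 to 165) against 589 CPM (542 to 639) with 90.9% of its esophageal UMIs in the second label and a ratio of 0.36 within the first, and the adult gene was *Pax9*. *Trp63*, the master regulator of the basal layer, was at 285 CPM (246 to 329) against 195 CPM (169 to 225) in the pup. In the adult it was at 245 CPM (221 to 271) against 170.1 CPM (156 to 185), and both ratios were under 2-fold. The pup log2 ratio of 0.55 was -0.19 within the first label and -0.44 within cluster 10. Of the regional homeobox and T-box genes 1 was tested in the pup (median 0.42) and 4 in the adult (median 0.17), and none was 2-fold apart. Below the minimum for the comparison, *Hoxc5* had 20 UMIs in the pup GE-SCJ (29.9 CPM, 18.2 to 46.1) and 2 in the pup esophagus (2.06 CPM, 0.249 to 7.43), and was at 36.7 CPM (27.8 to 47.6) and 26.8 CPM (21.4 to 33.1) in the adult. *Hoxc5* overlaps other genes of its cluster, which can share its reads.

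Signalling lists held few genes above the minimum. Of 4 EGF receptor family genes in the pup 2 were lower (median -1.27), *Egfr* and *Errfi1*, with ratios of -2.16 and -1.85 within the first label, and of 7 in the adult 1 was lower (median -0.26), the ligand *Ereg* at 9.02 CPM (4.93 to 15.1) against 44.9 CPM (37.8 to 52.8). The Notch list had 1 of 2 higher in the pup (median 0.95), the receptor *Notch1* at 113 CPM (89.4 to 142) against 43.2 CPM (31.1 to 58.4) with ratios of 1.38 over all, 0.90 within the first label and -0.45 within cluster 10, and none of 7 apart in the adult (median 0.15). The Wnt list had none of 3 apart in the pup (median 0.0031) and 1 of 9 lower in the adult (median -0.15), the ligand *Wnt10a*. Among BMP and TGF-beta genes 1 of 3 was lower in the pup (median -0.46), the target gene *Id2*, whose ratio of -1.31 was 1.55 within the first label, and 1 of 8 higher in the adult (median 0.25), the ligand *Bmp7* at 43.2 CPM (33.4 to 54.8) against 15.9 CPM (11.8 to 20.9). The PDGF, FGF and IGF list had 1 of 9 higher, *Sdc1*, and 1 lower, *Igfbp5*, in the pup (median -0.37), 1 and 3 within the first label, and none of 12 apart in the adult (median -0.48).

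Columnar and fetal programs were examined for the neighbouring epithelium and the earlier stage. The 5 simple keratins had 1 of 4 higher and 1 lower in the pup (median 0.35), 4 of 4 higher within the first label (median 1.98), and 2 of 4 higher in the adult (median 0.61). The 2 were *Krt7* and *Krt19*, of whose adult GE-SCJ UMIs 61.9% and 56.1% lay in the same cell. The adult ratio of *Krt19* was 1.53, 0.65 without the cell with the most UMIs in each group and -0.70 without cells near prenatal ones. *Krt8* was at 469 CPM (418 to 524) against 90.5 CPM (72.6 to 111) in the pup, with a ratio of 2.36 that was 2.12 within the first label. It was at 72.1 CPM (59.4 to 86.8) against 90.0 CPM (80.0 to 101) in the adult and at 299 CPM in postnatal immune cells. Of the 4 squamous groups only the pup GE-SCJ thus stood above this background. Within the pup GE-SCJ *Krt8* was at 834 CPM in cluster 10 but at 75.1 CPM in cluster 7. Of 26 gastric columnar genes, 13 were tested in the pup, with 1 higher and 2 lower (median 0.03) and, within the first label, 2 of 7 higher, and 16 in the adult, with 2 higher and 3 lower (median -0.36). *Pgc*, the pepsinogen of the gastric gland, was at 938 CPM (866 to 1014) in the pup GE-SCJ and 684 CPM (633 to 738) in the pup esophagus. In the adult it was at 506 CPM (471 to 542) and 630.0 CPM (603 to 658), and in postnatal immune cells at 1715 CPM with a UMI in 100% of cells, so that all 4 levels were below that of cells that do not make it. Endodermal and columnar transcription factors had none of 3 apart in the pup (median 0.02), 1 lower within the first label, or of 3 in the adult (median -0.25). Of the embryonic precursor genes, 3 of 3 were lower in the pup (median -1.90), *H19*, *Igf2* and *Peg3*, and 1 of 3 in the adult (median -0.90). This list summed to 564 CPM in postnatal immune cells, against 1596 CPM in the pup GE-SCJ and 4167 CPM in the pup esophagus. The adult GE-SCJ (269 CPM) and adult esophagus (497 CPM) were both below the immune cells.

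Between stages, 2729 junction genes were compared, of which 12.6% (345) were at least 2-fold higher in the adult than in the pup and 6.52% (178) at least 2-fold lower, with a median log2 ratio of 0.04. Without mitochondrial, ribosomal protein and hemoglobin genes these were 249 and 309, higher genes being 44.6% of the calls in place of 66.0%, and the median was -0.20. In cluster 7 cells alone, 84 adult against 27 pup, they were 444 and 122.

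The genes with the highest ratios of adult to pup junction cells had few or no UMIs in the pup. *Chil4* had no UMI in 46 pup GE-SCJ cells, which made the adult level at least 916-fold higher against the floor of 3 UMIs. *Calm4*, a calmodulin-like protein of skin, also had none in the pup and was at 481 CPM (447 to 516) in the adult, at least 107-fold higher. *Lor* stood at 2036 CPM in the adult against 11.9 CPM (5.16 to 23.5) in the pup, and its log2 ratio was 7.24 (6.43 to 8.63). *Slpi* was at 13.4 CPM (6.14 to 25.5) and 2434 CPM, a ratio of 7.35 (6.57 to 8.63), and *Serpinb12*, an intracellular protease inhibitor, at 4.48 CPM (0.924 to 13.1) and 911 CPM (864 to 959.6). *Gsdmc*, a gasdermin, and *Sdr16c5*, a retinol dehydrogenase, had no UMI in the pup and were at least 54.2-fold and 19.6-fold higher in the adult. Among cells of the basal keratin range alone, the ratio of stages was 0.59 for *Lor* and -0.89 for *Slpi*.

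The envelope list had 10 of 12 members higher in the adult and 1 lower (median 2.25), the lipid barrier list 14 of 17 higher (median 1.76), and the protease inhibitors 10 of 14 higher and 1 lower (median 2.86). In the basal keratin range only 3 lipid barrier genes had enough UMIs, with a median of -0.0055. Suprabasal keratins had 8 of 10 higher (median 1.81) and the desmosome list 7 of 11 (median 1.49). Of the 4 label markers 3 were higher, *Krt13* with a log2 ratio of 2.75, *Spink5* of 3.51 and *Krt14* of 1.14, and *Krt5* was at -0.09. Within cluster 7 the ratio of *Krt13* was 6.23, that of *Spink5* 2.86 and that of *Krt14* 0.65, under 2-fold. *Krt1* and *Krt10* were 1.59 and 1.52 higher on the log2 scale, and 0.49 and 0.44 within cluster 7. The Ly6 and SLURP list had 6 of 8 higher (median 1.82), detoxification genes 11 of 27 higher and 1 lower (median 0.95), and heat shock genes 6 of 12 higher (median 1.09). Of 5 innate defence genes 3 were higher and 2 lower (median 2.85).

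Simple epithelial and fetal genes were higher in the pup junction cells when all cells were taken. Within cluster 7 several of the epithelial ones differed by under 2-fold. *Krt19* was at 1114 CPM (1035 to 1197) in the pup against 137 CPM (119 to 156) in the adult, and *Krt18* at 231 CPM (196 to 271) against 28.3 CPM (20.6 to 38). In postnatal immune cells they were at 66.1 and 257 CPM, so that for *Krt18* neither stage stood above this background. All 4 simple keratins tested were at least 2-fold lower in the adult (median -2.85), but *Krt19* had a log2 ratio of 0.63 within cluster 7 after -3.02 over all cells. There *Krt8* was at -0.60 after -2.69 and *Krt7* at -0.52 after -1.57, and of the 4 only *Krt18*, at -1.85, was still past 2-fold. Of the adult cluster 7 UMIs 1 cell held 119 of 153 for *Krt19* and 280 of 419 for *Krt7*. Cluster 7 ratios without this cell are not given, so for both genes these values depend on it. Over all cells, without the cell with the most UMIs in each group, *Krt19* was at -3.99 and *Krt7* at -2.64. *Cldn7*, a tight junction claudin, was at 248 CPM (212 to 289) and 29 CPM (21.1 to 38.8), and *Sox4*, a transcription factor of progenitors, at 318 CPM (277 to 364) and 36.1 CPM (27.2 to 46.8). *Bpifb1* and *Wfdc2*, secreted proteins of mucosal epithelia, were at 973 CPM (900.1 to 1051) and 719.6 CPM (657 to 787) in the pup and at 105 CPM (89.5 to 122) and 88.9 CPM (74.7 to 105) in the adult. For *Bpifb1* 73.5% of the pup UMIs lay in 1 cell, and its log2 ratio of -3.21 was -1.35 without the cell with the most UMIs in each group. Within cluster 7 the ratios of *Bpifb1* and *Wfdc2* were -0.36 and -0.93, both under 2-fold. In postnatal immune cells *Bpifb1* was at 244 CPM. *H19* was at 182 CPM (161 to 204) in the adult junction cells after 1229 CPM in the pup ones, a log2 ratio of -2.75, and *Igf2* at 21.3 CPM (14.6 to 29.9) after 158 CPM. The basal adhesion list had 4 of 7 members lower (median -1.44), and the proliferation list 1 of 13 (median -0.66).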

How the data were processed

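Esophagus, GE-SCJ and stomach cells of all stages formed 1 gene expression library with a multiplexing tag library. The deposited counts are UMI counts per gene and cell, made by the authors with Cell Ranger 6.1.1 on mm10 per the submitters' processing notes, for 7808 cells and 19550 genes that remained after the authors' filters. The deposited cell table gives the class, tag, cluster and the mitochondrial percent of each cell. No further doublet removal was made.

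UMIs were summed per region and stage, with no test, since mice were pooled under each tag. Genes with at least 100 UMIs over both groups were compared, 1 UMI was added to each sum, and 2-fold was the limit. Intervals are exact 95% Poisson or binomial intervals and cover counting error only, and a count of 0 was read against a floor of 3 UMIs. For shares of cells at equal depth each cell was thinned to 5000 UMIs, which left out 4 of 46 pup GE-SCJ, 10 of 85 pup esophageal, 20 of 87 adult GE-SCJ, 61 of 232 adult esophageal and 32 of 92 immune cells. Nearest neighbours were taken in 30 principal components of 2000 variable genes. Gene positions are from GENCODE M21 on GRCm38, and tag sequences are those of the deposited tag list.

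The named genes were, per comparison and direction, the 10 of largest log2 ratio among genes with a UMI in at least 25% of cells of the higher group, the 10 in each direction that held at both stages, the 10 of opposite direction, of which 9 are reported here, and from each list the 3 with most UMIs and the 2 with the largest ratio. A few results are not reported here. Genes named outside this rule, the limit on *Krt1* and *Krt10* and the setting of 1 cluster were chosen after values had been seen. The members and gene lists were chosen with earlier results of these data known. Alternatives covered the averaging of cells, cell filters, single cells of high UMIs, library size, labels, clusters, basal cells, prenatal neighbours, columnar signal, count minimum, pseudocount and depth.

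Neighbours were found with scanpy 1.11.5 and scikit-learn 1.9.0 and intervals with scipy 1.17.1, in Python 3.11.15 with pandas 2.3.3 and numpy 2.4.6. Plots used matplotlib 3.10.9. The calculations were tested on simulated data.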

Additional observations from a re-analysis of the deposited data

Results flagged for a closer look

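The 9 genes below had log2 ratios of GE-SCJ to esophagus past 2-fold in opposite directions at both stages, all lower in the pup junction and higher in the adult one. The difference between stages was not tested, since each region and stage was 1 pooled sample.

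For *Psca* the ratio was -3.90 in the pup and 3.91 in the adult, and for *Ltf*, lactoferrin, -3.37 and 5.19. For *AA467197* it was -4.22 and 2.90 and for *Mal*, a membrane protein of apical transport, -2.62 and 3.95. In these 4 genes between 76.0% and 86.2% of the adult GE-SCJ UMIs lay in the 1 cell of 50389 UMIs. Within the first label their pup ratios were 1.19 for *Psca*, -0.45 for *Ltf*, 2.06 for *AA467197* and 1.85 for *Mal*.

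*Krt7*, a keratin of simple epithelia, was at -1.42 in the pup and 4.78 in the adult, where 61.9% of its UMIs lay in the same cell, and at 2.90 in the pup within the first label. *Krt23* was at -3.60 and 1.63, with 3.12 in the pup within the first label, and *Krt6a* at -1.45 and 2.06, with 0.35. *Tspan6*, a tetraspanin, was at -2.85 and 1.83 and *Gadd45g*, a stress response gene, at -1.74 and 1.41, with pup ratios of -0.95 and -2.33 within the first label.

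Of these 9 genes *Gadd45g* alone thus stayed past 2-fold in opposite directions within the first label. Its adult ratio was 0.94 without the cell with the most UMIs in each group and 0.46 in the basal keratin range, both under 2-fold. *Gadd45g* had UMIs in 27 of 87 adult GE-SCJ cells, with 35.8% of them in 1 cell, and in 16 of 46 pup GE-SCJ cells.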

How the results depend on the processing

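No test was made in any setting, and the values below are counts of genes at least 2-fold apart and log2 ratios. The genes named here had 190 log2 ratios past 2-fold. None reversed with a pseudocount of 10, the filter on cells or the averaging of cells. In that order, 187, 188 and 169 of the 190 stayed past 2-fold. The count minimum sets only which genes are tested and leaves each ratio unchanged, so it cannot show whether a ratio holds. Leaving out mitochondrial, ribosomal protein and hemoglobin genes moves all ratios of a comparison together. Of 189 ratios in that setting, 182 stayed past 2-fold and none reversed. Where a value differed, the cause was not tested unless the setting itself tests fewer genes or leaves out cells.

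With every cell weighted equally, by its own CPM, the pup comparison of regions had 131 genes higher in the GE-SCJ in place of 216. With mitochondrial, ribosomal protein and hemoglobin genes left out it had 425 higher, and the comparison of stages had 309 genes lower in the adult in place of 178. Without the cell with the most UMIs of each gene the adult comparison had 44 genes higher in place of 72. A pseudocount of 10 gave 106 genes lower in the adult GE-SCJ in place of 166.

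Count minimums set how many genes were tested. At 50 UMIs the pup comparison had 453 genes higher and 464 lower, the adult comparison had 312 lower, and the comparison of stages had 541 higher and 409 lower. At 300 UMIs these comparisons had 74 higher and 107 lower, 35 and 65, and 140 and 47. After thinning to 5000 UMIs per cell they had 60 and 114, 33 and 49, and 115 and 35.

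Choice of cells mattered most in the pup. The first squamous label alone gave 88 genes higher and 105 lower, cells without gastric columnar signal over 1% of UMIs gave 69 and 100, and cluster 10 alone, a setting chosen after the data had been seen, gave 116 and 75. The basal keratin range gave 41 and 74 in the pup, 44 and 47 in the adult, and 109 and 44 between stages.

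Within the first label the pup log2 ratio reversed for *AA467197* (2.06), *Cnfn* (2.87), *Duoxa2* (0.80), *Elf3* (0.36), *Id2* (1.55), *Il1r2* (2.61), *Krt23* (3.12), *Krt6a* (0.35), *Krt7* (2.90), *Mal* (1.85), *Psca* (1.19) and *Uaca* (0.19), and for the median of the cornified envelope genes (4.05). Between stages it reversed for *Ltf* (2.14) and *Psca* (0.0024). The envelope median of 4.05 rests on 5 genes, some of which passed the count minimum through the GE-SCJ.

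Within cluster 10 the pup ratio was 3.82 for *AA467197*, 4.84 for *Cnfn*, -0.97 for *Dapl1*, 2.68 for *Duoxa2*, 0.99 for *Elf3*, 2.06 for *Id2*, 0.10 for *Jdp2*, 2.90 for *Krt23*, 1.22 for *Krt6a* and 3.50 for *Krt7*. It was -0.35 for *Lgals7*, 3.72 for *Ltf*, 2.74 for *Mal*, -0.45 for *Notch1*, 2.14 for *Psca*, 0.27 for *Slc12a2* and 0.30 for *Uaca*, with a median of 4.95 for the cornified envelope genes. Within cluster 7 the ratio of stages was 1.85 for *AA467197*, 0.63 for *Krt19*, 3.95 for *Ltf*, 1.44 for *Mal* and 2.98 for *Psca*. All of these were reversed. Of the adult cluster 7 UMIs 1 cell held 380 of 384 for *Ltf*, 1330 of 1417 for *Psca* and 154 of 161 for *Mal*. The same cell held 79 of 89 for *AA467197* and 119 of 153 for *Krt19*. The reversed ratios of stages thus depend on this cell, and cluster 7 ratios without it are not given.

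In the basal keratin range the pup ratio reversed for *AA467197* (3.10), *Dapl1* (-0.36), *Id2* (1.96), *Il1r2* (4.03), *Krt23* (1.64), *Krt7* (2.68), *Ltf* (1.45), *Mal* (2.43), *Psca* (2.49) and *Slc12a2* (0.28). The adult ratio reversed for *Aldh3a1* (0.17), *Lor* (0.22), *Ltf* (-2.27), *S100a9* (0.53) and *Sdr16c5* (-0.011). Between stages *Degs1* (-0.0055), *Krt4* (-0.40), *Mki67* (0.65), *Slpi* (-0.89) and the median of the lipid barrier genes (-0.0055) reversed.

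Without cells rich in gastric columnar UMIs the pup ratio reversed for *AA467197* (0.64), *Duoxa2* (1.96), *Id2* (1.67), *Il1r2* (3.77), *Krt23* (2.46), *Krt7* (2.62), *Ltf* (0.28) and *Mal* (0.060), and the adult ratio for *AA467197* (-0.23), *Ghrl* (0.11) and *Ltf* (-1.20). Without cells near prenatal ones *Krt19* was at -0.70 in the adult. *Mki67* between stages was at 0.014 after thinning. The pup median of the 4 Ly6 and SLURP genes was -1.35 at 300 UMIs, -1.72 after thinning, -2.20 without cells near prenatal ones and -1.61 without the cell with the most UMIs.

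Mice cannot be told apart within a tag, so no replicate could be left out. No paired analysis was possible because each region and stage was 1 pooled sample. Group sizes of 46 to 232 cells and 669813 to 3209407 UMIs limit what was detectable, and 0 UMIs in the pup GE-SCJ allows up to 4.48 CPM.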

Other observations

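Of the cells with a squamous label 7 carried the tag of the pup stomach, 6 of them in cluster 7, and they belong to neither region compared above. Their summed levels were 603 CPM of *Krt1* from 2 cells and 374 CPM of *Krt10* from 3 cells, beside 10728 CPM of *Krt13*, 9026 CPM of *Krt4*, 1943 CPM of *Krt15* and 1207 CPM of *Krt5*. *Lgals7* was at 6854 CPM, *Fabp5* at 5406 CPM and *Ly6d* at 2486 CPM, and *Pax9* at 133 CPM from 4 cells. With 82871 UMIs in all, these are values of 7 cells only.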
